A study of Mus musculus with 18 samples.

Results

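The Fc gamma receptors and the Fc receptor gamma chain are described here as 5 genes of the mouse, Fcgr1, Fcgr3, Fcgr4, Fcgr2b and Fcer1g, out of 34921 genes with a complete entry in the deposited table. They were taken by gene symbol, and each symbol matched 1 entry. Total RNA was sequenced from small punches of brain of 9-week-old male C57BL/6 mice, an inbred strain, in a model of ischemic stroke called photothrombosis. In this model rose bengal, a dye that light activates, clots the vessels under a laser spot on the skull. Here 100 mg/kg was given 5 min ahead of 15 min of illumination at 532 nm and 40 mW through a fiber of 2 mm, centred on the skull 2 mm to the right of the midline mark bregma. The lesioned right side was taken at 4 h, 1 day, 3 days and 10 days, located by magnetic resonance imaging, and the matching right side of sham mice served as control (sham right). A sixth group was taken from the left side (contralateral left). The protocol assigns it to mice with stroke, but its disease state label is sham and no time is given. Each of the 6 groups has 3 libraries, numbered as in the titles, and the protocol gives 3 animals for the sham group and for each time. The titles of the left and the sham right libraries share the prefix ctr. The labels leave it unsaid if a left punch and any right punch come from 1 mouse.

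Fc gamma receptors are surface proteins of phagocytes and other leukocytes that bind the constant part of immunoglobulin G. In the mouse, the products of Fcgr1, Fcgr3 and Fcgr4 are activating receptors, and all pair with the small signalling chain encoded by Fcer1g, whose ITAM motif recruits the kinase Syk once receptors are clustered by immune complexes. The product of Fcgr2b is the inhibitory receptor of the family and acts through an ITIM motif that recruits the lipid phosphatase SHIP1, encoded by Inpp5d. In the brain these receptors are known mainly from microglia, border macrophages and invading monocytes.

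In the GENCODE annotation on GRCm38, 4 of the 5 genes are near one another on chromosome 1. Fcgr2b is at chr1:170958617-170976547 on the minus strand, Fcgr4 at chr1:171018920-171029761 on the plus strand, Fcgr3 at chr1:171051174-171064935 on the minus strand and Fcer1g at chr1:171229572-171234365 on the minus strand. Fcgr1 is alone at chr3:96282909-96293969 on the minus strand. The 3 short motifs sought are known from myeloid and cytokine-driven genes, and were looked for on both strands in the 250 bases before the RefSeq start of each gene. These were GAGGAA, the core bound by the myeloid factor PU.1, TTCNNNGAA, the site of STAT proteins, and the site of interferon regulatory factors, GAAA followed by any pair of bases and GAAA again. For Fcgr2b and Fcgr3 the RefSeq start and the whole window lie inside the GENCODE span given above. The stretches that held a match are printed so that the matches can be seen in place. They run 5′ to 3′ along the gene and end next to the start or, for Fcgr4, at the last base before its annotated first exon. Capitals mark the matches, from RefSeq sequence on GRCm38.p6, and TTCCTC is GAGGAA read on the other strand.
Fcgr1 (chr3:96293970-96294089, minus strand): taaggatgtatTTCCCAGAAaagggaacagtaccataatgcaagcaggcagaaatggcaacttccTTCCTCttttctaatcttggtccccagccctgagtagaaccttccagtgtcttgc
Fcgr3 (chr1:171059404-171059523, minus strand): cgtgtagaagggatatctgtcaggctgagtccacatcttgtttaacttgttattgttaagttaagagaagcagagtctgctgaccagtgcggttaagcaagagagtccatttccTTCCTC
Fcgr4 (chr1:171018806-171018919, plus strand): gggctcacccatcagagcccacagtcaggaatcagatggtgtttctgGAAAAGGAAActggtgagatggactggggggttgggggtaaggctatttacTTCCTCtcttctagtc

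The GAGGAA core was thus found for 3 of the 5 genes, all on the opposite strand, starting 55, 6 and 22 bases before the start of Fcgr1, Fcgr3 and Fcgr4. From a second RefSeq start of Fcgr3 the match lay 15 bases before. GAGGAA is a common word, present in 23.3% of 32851 promoter windows of the same length. The STAT word, found 109 bases before the start of Fcgr1 in the form TTCCCAGAA, was present in 7.02% of windows. The interferon regulatory word, found 73 bases before the start of Fcgr4 as GAAAAGGAAA, was present in 2.98%. No match to any of these letters was found in the windows of Fcgr2b and Fcer1g. These matches are descriptions of sequence and say nothing about binding.

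Levels are given in FPKM, which divides fragments by transcript length and by library size, so levels of different genes can be set side by side. Nominal depth, worked out from the spacing of low values, was 12.3 to 29.5 (in units of 1 M fragments) per library. Neuronal markers were high in every group, with a summed level of 853 to 1231 FPKM over 8 genes, so the markers of the labelled brain tissue were present. The libraries named next stood furthest from their own groups. Contralateral left 5 had a mean correlation of 0.941 with its group, and 10 days 5 had 0.933 and the highest mitochondrial share, 44.6% of summed FPKM against 24.4% to 39.0% elsewhere. Summed choroid plexus markers ran from 1.61 to 635 FPKM over the libraries, and their part in the results was not tested.

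Differences between groups were tested with limma on log2(FPKM + 1) over all 14016 genes that reached 1 FPKM in at least 3 libraries, and a gene is said to rise or fall where the Benjamini-Hochberg adjusted p is below 0.05. All log2 fold changes are on that scale, which understates the change of genes near or below 1 FPKM. All 5 genes passed this filter. Fcgr4 passed only through the libraries of 1, 3 and 10 days, and Fcgr2b reached 1 FPKM outside them only in contralateral left 3 and 4 h 3. Their inclusion therefore depended on the groups in which they are high, and the counts below are descriptions of the family.

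None of the 5 genes was called at 4 h, Fcgr1 and Fcgr4 rose by 1 day, and all 5 were higher at 3 and at 10 days. At 10 days the ratio of mean FPKM to sham right was 7.63 for Fcgr1, 8.89 for Fcgr3, 11.9 for Fcer1g, 20.03 for Fcgr2b and 61.5 for Fcgr4. The share of all tested genes called higher was 1.32% at 4 h, 0.899% at 1 day, 6.91% at 3 days and 6.21% at 10 days. Against these backgrounds, 0, 2, 5 and 5 of the 5 genes were called higher, and none was called lower at any of these times. At an unadjusted p below 0.05, limma would pass 1 of the 5 at 4 h and 5 at 1 day. In tissue punches a change in the number of myeloid cells and a change in RNA per cell cannot be told apart. All 4 times share the sham right libraries and are not independent of one another.

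Fcgr1 encodes the high-affinity receptor for immunoglobulin G. Its FPKM was 1.80, 1.08 and 1.38 in sham right 1, 2 and 3, and 1.07, 1.21 and 1.19 in 4 h 2, 3 and 6. It was 4.04, 3.90 and 3.99 in 1 day 1, 3 and 4, then 10.0, 6.53 and 11.3 in 3 days 1, 2 and 8 and 11.97, 10.7 and 9.83 in 10 days 1, 2 and 5. The 1 day libraries lay close together and above every sham right, left and 4 h library, while the 3 day and 10 day ranges overlapped. The log2 fold change against sham right was -0.16 ± 0.18 (SE) at 4 h (limma adjusted p 0.686), 1.05 ± 0.18 at 1 day (adjusted p 0.00595), 2.07 ± 0.18 at 3 days (adjusted p 1.97e-06) and 2.30 ± 0.18 at 10 days (adjusted p 3.06e-07). Every rise was in 3 of 3 libraries.

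Fcgr4 encodes an activating receptor of intermediate affinity that prefers the IgG2 subclasses. It was the scarcest of the family in controls, at 0.175, 0.0609 and 0.176 FPKM in sham right 1, 2 and 3, which corresponds to a nominal 3.91, 1.71 and 4.52 fragments. It measured 0.532, 0.395 and 0.213 FPKM in 4 h 2, 3 and 6, and 1.26, 2.81 and 2.13 in 1 day 1, 3 and 4. It reached 8.11, 4.10 and 6.69 in 3 days 1, 2 and 8 and 7.83, 6.46 and 11.1 in 10 days 1, 2 and 5. All 4 h libraries lay above all sham libraries, but these differences are of a few fragments and the 4 h change was 0.27 ± 0.25 (limma adjusted p 0.603). At 1 day the log2 fold change was 1.4004 ± 0.25 (limma adjusted p 0.00732), a call that ended without 1 day 3 (adjusted p 0.0593). It was 2.64 ± 0.25 at 3 days (adjusted p 3.57e-06) and 3.03 ± 0.25 at 10 days (adjusted p 4.67e-07). With a constant of 0.1 in place of 1, the changes at 1, 3 and 10 days were 3.17, 4.74 and 5.18. The fold against so low a control level is accordingly imprecise.

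Fcgr3 encodes the low-affinity activating receptor and was the most abundant of the 4 receptors in every library. Its FPKM was 9.49, 7.63 and 7.91 in sham right 1, 2 and 3, and 19.6, 23.5 and 10.196 in 4 h 2, 3 and 6. It was 19.3, 26.4 and 19.3 in 1 day 1, 3 and 4, then 60.6, 40.6 and 39.5 in 3 days 1, 2 and 8 and 75.5, 54.3 and 92.8 in 10 days 1, 2 and 5. All 3 libraries of 4 h lay above all sham right libraries, and 2 of them were in the range of 1 day. The log2 fold change at 4 h was 0.94 ± 0.31 (limma adjusted p 0.134). With contralateral left 5 and 10 days 5 left out of the fit, which changes the shared estimate of spread but no value of either group, the same difference was called (adjusted p 0.0360). In that fit 1806 genes were called at 4 h, against 306 in the main fit, so calls grew among genes in general. At 1 day the log2 fold change of Fcgr3 was 1.27 ± 0.31 (limma adjusted p 0.0628), not called although again no library overlapped with sham right. It rose by 2.34 ± 0.31 at 3 days (limma adjusted p 8.13e-05) and by 2.98 ± 0.31 at 10 days (adjusted p 4.59e-06).

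Fcgr2b encodes the inhibitory receptor. Its FPKM was 0.918, 0.614 and 0.869 in sham right 1, 2 and 3, and 0.785, 1.396 and 0.704 in 4 h 2, 3 and 6. It was 2.31, 3.50 and 2.71 in 1 day 1, 3 and 4, then 8.86, 5.19 and 7.44 in 3 days 1, 2 and 8 and 13.3, 9.20 and 25.6 in 10 days 1, 2 and 5. From 1 day on, the libraries of each time lay above all libraries of the time before. The log2 fold change was 0.11 ± 0.28 at 4 h (limma adjusted p 0.874) and 1.08 ± 0.28 at 1 day (adjusted p 0.0972), where it was not called. It was called at 2.16 ± 0.28 at 3 days (limma adjusted p 8.02e-05) and 3.13 ± 0.28 at 10 days (adjusted p 1.22e-06). Without 10 days 5 the 10 day mean went from 16.03 to 11.2 FPKM and the log2 fold change to 2.75.

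Fcer1g encodes the signalling chain and was, with Fcgr3, the most abundant of the 5 transcripts. Its FPKM was 12.9, 10.23 and 12.4 in sham right 1, 2 and 3, and 13.6, 13.9 and 8.18 in 4 h 2, 3 and 6. It was 19.6, 28.0 and 18.8 in 1 day 1, 3 and 4. It was then 69.3, 43.8 and 70.3 in 3 days 1, 2 and 8 and 111, 81.4 and 229 in 10 days 1, 2 and 5. The sham and 4 h ranges overlapped, and each later time lay above the one before. Its log2 fold change was -0.02 ± 0.33 at 4 h (limma adjusted p 0.984), 0.84 ± 0.33 at 1 day (adjusted p 0.424), 2.25 ± 0.33 at 3 days (adjusted p 0.000255) and 3.33 ± 0.33 at 10 days (adjusted p 3.57e-06). The call at 10 days held without 10 days 5, at 2.91 (limma adjusted p 8.60e-06), with a mean of 96.2 in place of 140.5 FPKM.

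**Figure D1:**
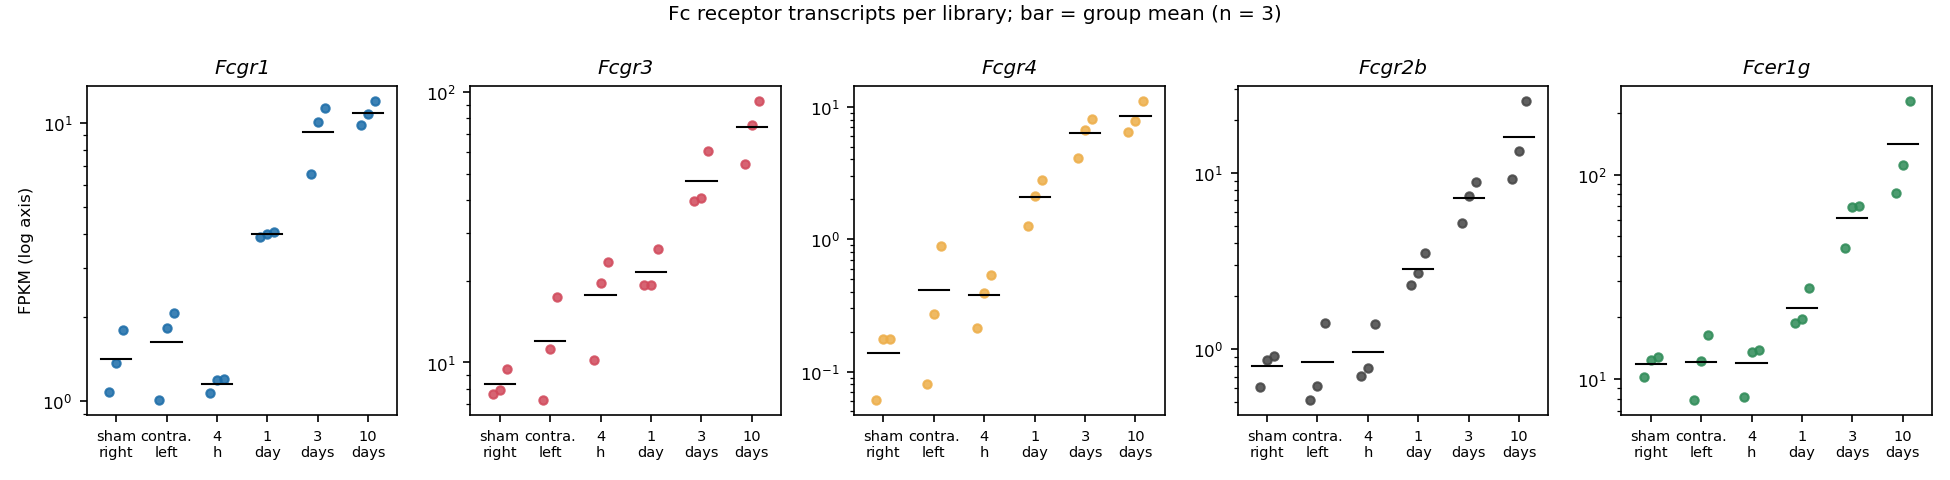
FPKM of Fcgr1, Fcgr3, Fcgr4, Fcgr2b and Fcer1g on a log axis of its own for each gene, with 1 point per library and a bar at the mean of the 3 libraries of each group. The libraries of 3 and 10 days lie above every sham right, contralateral left and 4 h library for all 5 genes.

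**Figure D2:**
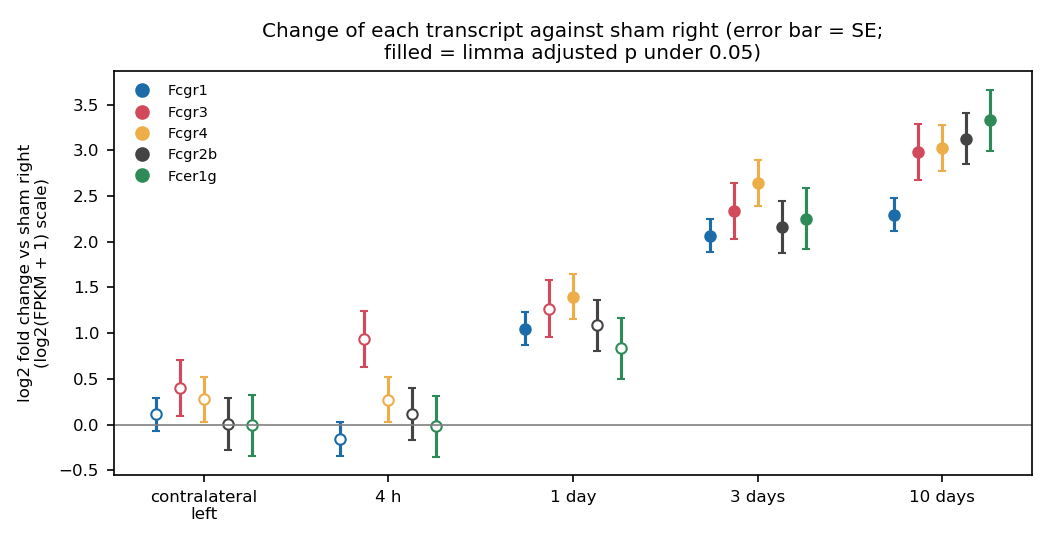
Log2 fold change of each gene against sham right on the log2(FPKM + 1) scale for the contralateral left group and the 4 times, with error bars of 1 SE and filled points where the limma adjusted p is below 0.05. No point is filled for the left side or 4 h, 2 are filled at 1 day and 5 at 3 and at 10 days.

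On the left side none of the 5 genes differed from sham right by limma (0 also at an unadjusted p below 0.05), where 0.0214% of all tested genes were called higher. Fcgr1 measured 2.08, 1.83 and 1.01 FPKM in contralateral left 1, 3 and 5, and Fcgr2b 0.622, 1.403 and 0.515. Fcgr3 measured 11.2, 17.5 and 7.26, Fcgr4 0.270, 0.891 and 0.0804, and Fcer1g 12.3, 16.4 and 7.89. For 4 of the 5 genes library 3 was the highest, and library 5 was the lowest for all 5. The log2 fold changes were 0.40 ± 0.31 for Fcgr3, 0.27 ± 0.25 for Fcgr4, 0.11 ± 0.18 for Fcgr1, 0.010 ± 0.28 for Fcgr2b and -0.0077 ± 0.33 for Fcer1g (limma adjusted p 0.829 to 0.997). A wide spread within this group limits what could be seen.

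Between successive times, the largest number of calls fell between 1 and 3 days. From 4 h to 1 day Fcgr1 rose by 1.21 ± 0.18 (limma adjusted p 0.00356) and Fcgr4 by 1.13 ± 0.25 (adjusted p 0.0376), 2 of 5 genes against 0.849% of all tested genes. The Fcgr4 call ended when any 1 of 4 h 2, 3 and 6 or 1 day 3 and 4 was left out (adjusted p 0.0784 to 0.191), and also with no filter (0.09796), with median ratio scaling (0.0604) and with the 2 groups alone (0.0661). Fcgr3, already above every sham right library in all libraries of 4 h, differed between these times by 0.33 ± 0.31 (limma adjusted p 0.838).

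From 1 to 3 days, 4 of the 5 genes rose, against 5.07% of all tested genes. Fcer1g rose by 1.42 ± 0.33 (limma adjusted p 0.0171), Fcgr4 by 1.24 ± 0.25 (adjusted p 0.00555), Fcgr2b by 1.07 ± 0.28 (adjusted p 0.0353) and Fcgr1 by 1.02 ± 0.18 (adjusted p 0.00243). Fcgr3 had a change of 1.07 ± 0.31 that just missed the threshold (limma adjusted p 0.0575). Leaving out any 1 of 1 day 1, 3 and 4 or 3 days 1 and 8 ended the Fcgr2b call (adjusted p 0.0565 to 0.172), and leaving out any 1 of 1 day 1 and 4 or 3 days 1 and 8 ended that of Fcer1g (adjusted p 0.0673 to 0.0992). With a constant of 0.1 FPKM in place of 1 the Fcgr2b and Fcgr4 calls were lost (limma adjusted p 0.0703 and 0.0971), and with no filter or with median ratio scaling those of Fcgr2b and Fcer1g.

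From 3 to 10 days no gene of the 5 was called, and 0.828% of all tested genes were called higher. Fcer1g differed by 1.08 ± 0.33 (limma adjusted p 0.130), Fcgr2b by 0.97 ± 0.28 (adjusted p 0.108), Fcgr3 by 0.65 ± 0.31, Fcgr4 by 0.38 ± 0.25 and Fcgr1 by 0.23 ± 0.18. At an unadjusted p below 0.05, limma would pass 2 of the 5, Fcgr2b (p 0.00350) and Fcer1g (p 0.00515). Without 10 days 2 both were called, at 1.28 and 1.401 (adjusted p 0.0223 and 0.0423), while without 10 days 5 their differences were 0.59 and 0.66. The median over all tested genes in this step was -0.15, so the values of the 5 genes stand somewhat higher relative to it.

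The balance of activating and inhibitory receptors was followed within each library. Summing the activating receptors Fcgr1, Fcgr3 and Fcgr4 and dividing by Fcgr2b within each library gave 12.5, 14.3 and 10.9 in sham right 1, 2 and 3. The ratio was 21.8, 14.4 and 16.2 in contralateral left 1, 3 and 5 and 27.1, 18.01 and 16.5 in 4 h 2, 3 and 6. It was 10.7, 9.46 and 9.39 in 1 day 1, 3 and 4. It was then 8.89, 9.88 and 7.73 in 3 days 1, 2 and 8 and 7.17, 7.77 and 4.44 in 10 days 1, 2 and 5. Every library of 4 h was above every sham right library, and every library of 1, 3 and 10 days was below them. With 1 FPKM added to both sides, the log2 ratio was 2.59 in sham right, 3.32 at 4 h, 2.90 at 1 day, 2.96 at 3 days and 2.56 at 10 days, so that the place of the later times against sham right depends on the constant. The group means were 12.6 ± 1.70 (SD, n = 3) in sham right, 17.5 ± 3.86 on the left, 20.5 ± 5.72 at 4 h, 9.84 ± 0.715 at 1 day, 8.83 ± 1.07 at 3 days and 6.46 ± 1.77 at 10 days. These ratios are described without a test. In FPKM the activating receptors stayed several times more abundant than the inhibitory one throughout.

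Fcer1g was set against the same activating sum. The ratio was 1.198 ± 0.0956 (SD, n = 3) in sham right, 0.887 ± 0.0686 on the left and 0.634 ± 0.0760 at 4 h. It was 0.794 ± 0.0528 at 1 day, 0.986 ± 0.205 at 3 days and 1.44 ± 0.499 at 10 days. All libraries of 4 h and 1 day were below all sham right libraries. At 10 days libraries 1 and 2, at 1.17 and 1.14, lay within the sham range of 1.12 to 1.31, and library 5, at 2.02, set the high mean.

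**Figure D3:**
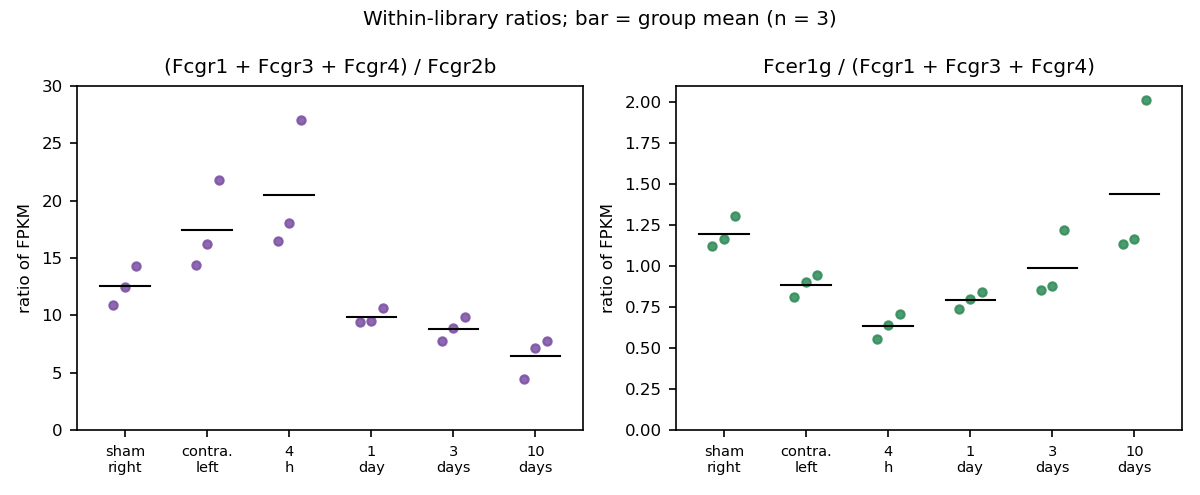
Ratios of FPKM within each library, with 1 point per library and a bar at the mean of 3. On the left, the activating receptors over Fcgr2b, whose means go from 12.6 in sham right to 20.5 at 4 h and 6.46 at 10 days. On the right, Fcer1g over the activating receptors, lowest at 4 h with a mean of 0.634.

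Fcgr3 and Fcer1g made up most of the summed FPKM of the 5 genes in every group, and the smaller shares changed most in relation to their size. The share of Fcgr3 was 37.1% ± 2.05 (SD, n = 3) in sham right, 54.4% ± 4.25 at 4 h and 31.0% ± 5.07 at 10 days. The share of Fcgr4 went from 0.593% ± 0.248 in sham right to 3.87% ± 1.01 at 1 day, 4.74% ± 0.567 at 3 days and 3.52% ± 0.494 at 10 days. Fcgr2b held 3.53% ± 0.361 in sham right and 6.22% ± 0.652 at 10 days. The ratio of Fcgr3 to Fcgr4 narrowed from 54.1, 125 and 44.9 in the sham right libraries to 9.64, 8.41 and 8.40 in those of 10 days.

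Each gene was also set against 9 pan-myeloid genes of the same library (Ptprc, Itgam, Itgb2, Spi1, Csf1r, Aif1, Laptm5, Cd53 and Coro1a), as a log2 ratio to their geometric mean with 0.1 FPKM added. Of these 9 genes, 0 were called at 4 h and at 1 day and 8 rose at 3 and at 10 days (limma unadjusted p below 0.05 for 1 at 4 h and 3 at 1 day). Coro1a was not called at 3 days, with means of 20.2 FPKM in sham right and 25.4 at 3 days (limma adjusted p 0.667). Its small change lessens the rise of the geometric mean and so adds to the rise of each ratio. The geometric mean of the 9 genes (log2) was 1.71 ± 0.0712 (SD, n = 3) in sham right, 2.27 ± 0.0795 at 1 day, 3.50 ± 0.291 at 3 days and 4.06 ± 0.294 at 10 days. Fcgr4 went from -3.83 ± 0.409 in sham right to -1.22 ± 0.479 at 1 day, -0.88 ± 0.309 at 3 days and -0.999 ± 0.0960 at 10 days. Fcgr2b went from -1.88 ± 0.233 to -0.74 ± 0.214 at 1 day and -0.18 ± 0.450 at 10 days.

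The other 3 genes were followed in the same way. Fcgr1 went from -1.13 ± 0.277 in sham right to -0.24 ± 0.105 at 1 day and -0.61 ± 0.396 at 10 days, where library 5, at -1.07, lay in the sham range. Fcgr3 went from 1.36 ± 0.0951 to 2.45 ± 0.486 at 4 h, its highest mean, and 2.12 ± 0.1497 at 10 days. Fcer1g went from 1.86 ± 0.133 to 2.18 ± 0.252 at 1 day and 2.94 ± 0.472 at 10 days. At 10 days every library was above every sham right library for Fcgr2b, Fcgr3, Fcgr4 and Fcer1g. With 1 FPKM added in place of 0.1, Fcgr4 went from -2.08 in sham right to -0.97 at 10 days, Fcgr2b from -1.42 to -0.21 and Fcer1g from 1.41 to 2.83, so that the order of these differences depends on the constant.

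**Figure D4:**
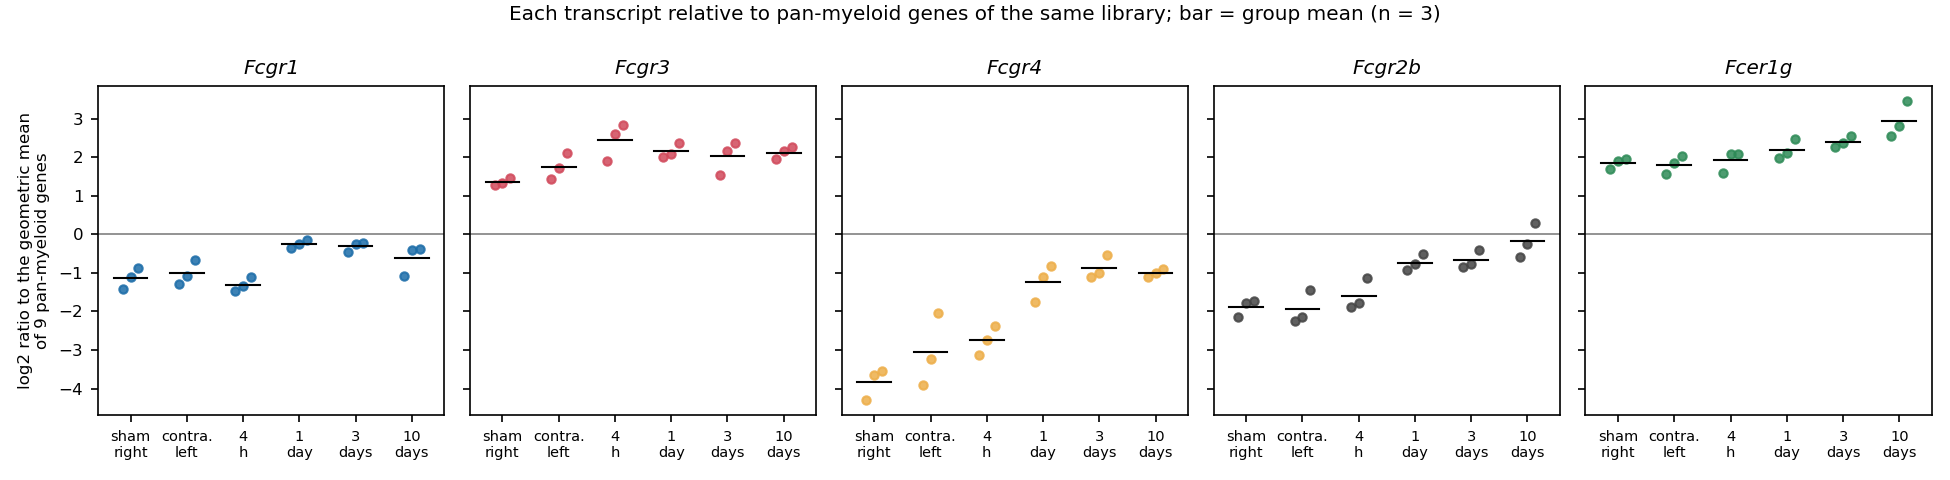
Log2 ratio of each gene to the geometric mean of 9 pan-myeloid genes in the same library, with 1 point per library and a bar at the mean of 3. Fcgr4 starts lowest, with a mean of -3.83 in sham right, and reaches -0.999 at 10 days, while Fcgr3 and Fcer1g lie above 0 in every library.

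Among other Fc receptors and relatives, 3 of 12 genes were tested. Fcrls, a microglial receptor-like gene of the family, rose by 1.13 at 1 day, 2.76 at 3 days and 2.69 at 10 days. Trim21, the cytosolic antibody receptor, rose by 0.44 at 3 days and 0.45 at 10 days. Fcgrt, the neonatal Fc receptor that recycles immunoglobulin G, was not called at any time and stood at -0.81 at 4 h and 0.51 at 10 days. The high-affinity IgE receptor genes Fcer1a and Ms4a2, whose products also use the gamma chain, did not reach the filter.

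Of 16 genes of immunoglobulins and pentraxins, 4 were tested. Ptx3, a pentraxin that can bind Fc gamma receptors, rose by 4.33 at 1 day and 1.24 at 3 days. Ighm, the heavy chain of immunoglobulin M, rose by 0.87 at 3 days and 0.77 at 10 days, and Ighg2c, a heavy chain of immunoglobulin G, by 0.55 and 0.81. Igkc, the kappa light chain, rose by 2.37 at 10 days. Of 8 B and plasma cell markers none was tested, and their summed level was 0.600 to 0.933 FPKM in sham right and 1.301 to 1.83 at 10 days.

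The genes downstream of the gamma chain rose with the receptors at the late times. Of 16 tested genes of activating ITAM signalling, 0 were called at 4 h and at 1 day, 12 rose at 3 days and 13 at 10 days, with medians of 1.14 and 1.44 against 0.075 and -0.068 over all tested genes. Tyrobp, an adaptor of the same kind as the gamma chain that serves other receptors, rose by 1.67 at 3 days and 3.15 at 10 days. Lyn, a kinase that phosphorylates ITAM motifs, rose by 1.67 and 1.89, and Pik3ap1, an adaptor for phosphoinositide 3-kinase, by 1.64 and 1.97. Syk rose by 0.71 and 0.91. Pik3cd, Bcl10 and Prkcd were not called at either time. At an unadjusted p below 0.05, limma would pass 0 of the 16 at 4 h and 7 at 1 day.

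The inhibitory side rose as well. Of 9 tested genes, 0 were called at 4 h and at 1 day and 6 rose at 3 and at 10 days, with medians of 0.82 and 1.54 (limma unadjusted p below 0.05 for 0 at 4 h and 2 at 1 day). Inpp5d, which encodes the phosphatase recruited by the Fcgr2b product, rose by 1.12 at 3 days and 1.54 at 10 days. Lilrb4a, an inhibitory receptor, rose by 2.25 and 2.12, and Ptpn6, a tyrosine phosphatase, by 1.56 and 2.20. All 6 genes of the phagocyte oxidase, the enzyme that makes superoxide during phagocytosis, rose at 3 and at 10 days, with medians of 1.59 and 2.23. At 1 day 0 of these 6 were called by limma, with an unadjusted p below 0.05 for 4. Among them Cyba rose by 2.04 and 2.55, and Cybb by 1.27 and 2.30.

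Other receptors that use the gamma chain passed the filter in 3 of 8 cases. Csf2rb, the shared beta chain of cytokine receptors, rose by 1.52 at 3 days and 1.50 at 10 days, and Clec4d, a C-type lectin, by 1.18 and 1.13. Clec4n, the lectin Dectin-2, rose by 1.43 at 10 days. Among receptors that use Tyrobp, Trem2 rose by 1.70 at 3 days and 2.82 at 10 days, Siglech by 0.60 at 3 days and Clec5a by 1.61 at 10 days.

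Markers of cells that can carry these receptors were measured in the same libraries. Of 11 homeostatic microglia genes, 2 were lower at 4 h, Gpr34 by 1.41 and Sall1 by 0.63 on the log2 scale, when 0.863% of all tested genes were called lower. At 1 day 0 of the 11 were called, with a median of -0.38 and 2 above 0. The limma unadjusted p at 1 day was below 0.05 for 5 of them. Of this list 4 were higher at 3 days, among them Tmem119 by 1.02, and 5 at 10 days, among them Gpr34 by 1.83. P2ry12 and Cx3cr1 were not called at 3 days, at 0.063 and 0.55. The summed level of the list was 71.4 to 93.8 FPKM at 4 h, 100.2 to 129 in sham right and 409 to 525 at 10 days. Of 11 tested monocyte and macrophage genes, 2 rose at 1 day (Lgals3 by 1.86 and Ms4a6c by 1.58), 5 at 3 days and 6 at 10 days, with Lgals3 at 4.08 and 4.23. The summed level of the 13 list genes with an entry was 8.65 to 9.34 FPKM in sham right and 19.1 to 28.4 at 1 day. It was 57.4 to 133.8 at 3 days and 86.2 to 204.6 at 10 days. A single gene carried much of this sum, with means of 4.17 FPKM in sham right, 8.48 at 1 day, 43.1 at 3 days and 79.6 at 10 days. Ccr2 had means of 0.136 FPKM in sham right and 0.929 at 10 days. Ly6c2 was not called at 3 days (0.31, limma adjusted p 0.537), so the sum does not stand for every gene of the list. The 11 tested genes did not all keep rising, since from 3 to 10 days 1 was called higher and 2 lower. In that step 283 of the 14016 tested genes were called in either direction. The part of either cell type in the levels of the Fc receptors was not tested.

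Neutrophil genes were seen less clearly. Of 4 tested, 0 were called at 4 h and at 1 day, when limma gave an unadjusted p below 0.05 for 3 of them at each time and S100a9 stood at 1.79 and 1.93, and Csf3r alone was called at 3 and at 10 days, at 1.43 and 2.11. The summed level was 2.12 to 7.16 FPKM in sham right and 8.93 to 24.0 at 4 h, and Ly6g, a defining marker, was listed at 0 in all libraries of sham right, 4 h, 1 day and 3 days. Of the 3 tested T and NK cell genes 0 were called by limma at any time, with an unadjusted p below 0.05 for 1 at 4 h and 1 at 10 days. Mast cell markers summed to at most 1.09 FPKM in any library. Of the lists for resident brain cells, 0 of 8 neuronal, 0 of 6 oligodendrocyte and 0 of 5 choroid plexus genes were called by limma at any time, with an unadjusted p below 0.05 for 2 oligodendrocyte genes at 1 day and 2 neuronal genes at 10 days. At 4 h the astrocyte gene Aqp4 was lower, by 0.96 on the log2 scale, as were the endothelial genes Slco1a4 and Tek, by 1.42 and 1.21. At 3 days Aldh1l1 rose by 0.74 among astrocyte genes and Pecam1 by 0.68 among endothelial genes. All genes called lower made up 0.278% of those tested at 1 day, 0.457% at 3 days and 0.92% at 10 days, and none was in the lists named here.

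**Figure D5:**
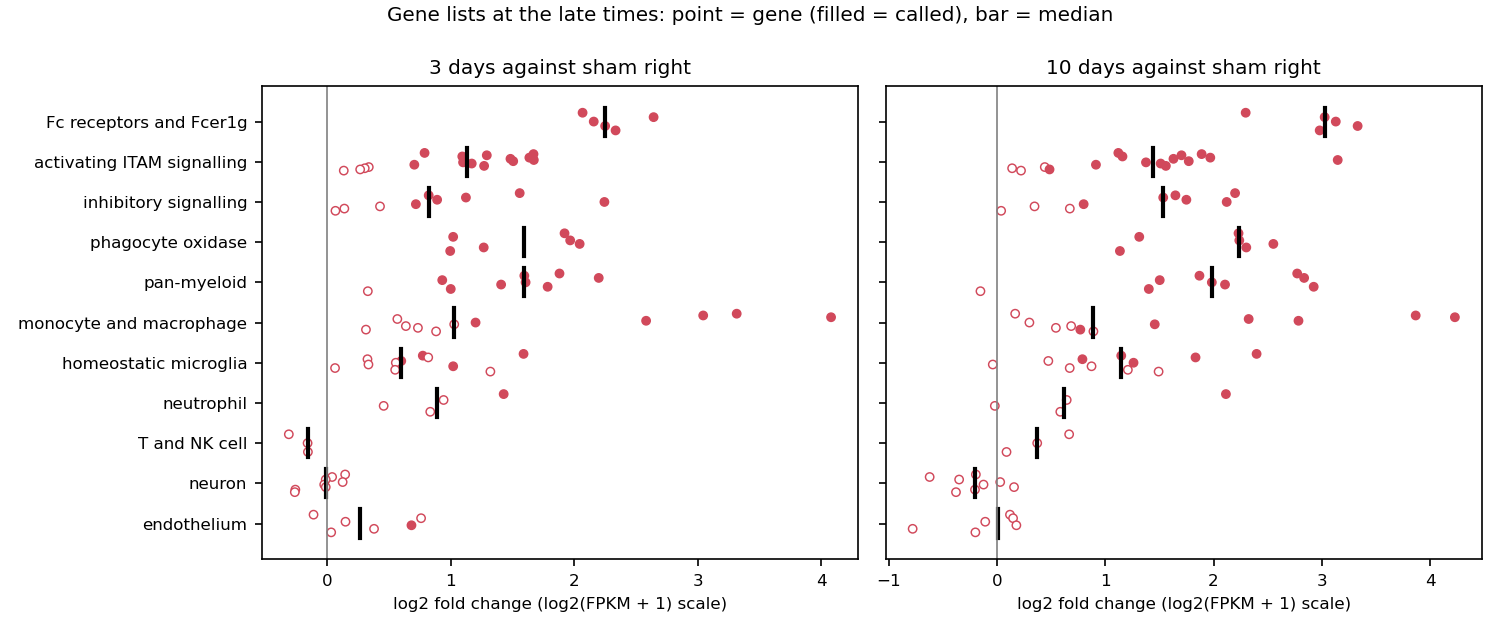
Log2 fold change against sham right at 3 days (left) and 10 days (right) for the Fc receptors with Fcer1g and for lists of related genes and cell type markers. Each point is a gene, filled where the limma adjusted p is below 0.05, and the black bar is the median of the list. The median of the 5 Fc receptor genes is 2.25 at 3 days and 3.03 at 10 days, and those of the 8 neuronal genes are -0.013 and -0.20.

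Genes around the Fc receptors were also looked at, where 6.91% of all tested genes were called higher at 3 days and 6.21% at 10 days. Within 200 kb of the chromosome 1 members the annotation holds 42 other genes, of which 21 were tested. One of them, Arhgap30, was called, at 0.79 ± 0.13 at 3 days (limma adjusted p 0.000772) and 1.05 ± 0.13 at 10 days (adjusted p 3.63e-05). The medians of the 21 were 0.074 and -0.22. Around Fcgr1, 11 of 51 neighbours were tested, and Mtmr11 alone was called, at 0.86 ± 0.14 at 3 days (limma adjusted p 0.000433) but not at 10 days (0.035 ± 0.14). The highest change among these 11 was 1.47 at 3 days and 1.17 at 10 days, neither of them called. Such counts are too small to set apart from the shares over all tested genes.

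Across the 18 libraries, on log2(FPKM + 1), the 5 genes followed one another with Pearson r from 0.894 (Fcgr1 and Fcgr3) to 0.991 (Fcgr2b and Fcer1g). Among deviations from the group means r was 0.920 for Fcgr2b and Fcer1g and 0.262 to 0.427 between Fcgr1 and the others. These values are descriptions over libraries that share groups and scaling. The non-member with the highest r was Spi1 for Fcgr1 (0.981), which encodes the factor PU.1, P2ry6 for Fcgr2b (0.993), a nucleotide receptor of microglia, C3ar1 for Fcgr3 (0.956), the complement C3a receptor, Lgals3 for Fcgr4 (0.988), which encodes galectin-3, and Cd53 for Fcer1g (0.990), a leukocyte tetraspanin. The next 4 were Fcrls, Abi3, Lat2 and Cd72 for Fcgr1, and Milr1, Igsf6, Tlr13 and C3ar1 for Fcgr2b. For Fcgr3 they were C1qb, P2ry6, Tlr2 and Plek, for Fcgr4 Lyn, Arhgdib, Spi1 and P2ry6, and for Fcer1g Ly86, Naip2, P2ry6 and Igsf6. Many genes were nearly as close, since 93 (Fcgr3) to 292 (Fcer1g) of 14011 non-members had r above 0.9, so the order at the top is not sharp.

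Reads of 2 of the genes may be hard to assign. Of 1627 stretches of 50 bases in the annotated Fcgr3 transcripts, 166 also occur in Fcgr2b transcripts, where they are 4.48% of the stretches, and the longest identical run between coding transcripts is 129 bases. At 150 bases no stretch was shared, and no other pair of the 5 genes shared a stretch of 50 bases. Fcgr3 was 3.63 to 25.0 times as abundant as Fcgr2b, and the effect of the shared stretches on their values was not tested. The antisense gene Gm38204 overlaps Fcgr2b, and strand handling is not given in the sources used here.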

How the data were processed

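Total RNA libraries were made with a VAHTS kit, per the labels' protocols. GRCm38 and the tools HISAT2 2.1.0, StringTie 1.3.4d and Trimmomatic 0.36 are named, per the submitters' processing notes; settings, annotation and strand handling are not given in the sources used here. The authors deposited FPKM for each of the 18 libraries. Their deposited p-value and q-value served only to see that the table is ordered by q; of the 38022 entries these imply, 3101 of the highest q were not analysed here. FPKM falls for all genes when abundant RNA, such as mitochondrial RNA, takes more of a library.

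Genes at 1 FPKM or more in at least 3 libraries were fitted as log2(FPKM + 1) in R 4.3.3 by limma 3.58.1, which used statmod 1.5.0, with 1 mean per group over 18 libraries, trend and robust moderation, and Benjamini-Hochberg adjustment over all 14016 genes; the fit was tested on simulated data. Levels, ratios and correlations are descriptions. Named genes are the 5 members, a fixed panel, the 2 called genes with the largest change of each list and direction, the calls of lists with 5 or fewer, the 5 genes of highest r, and neighbours within 200 kb; others named were chosen after their values were seen, and 1 called marker gene is not reported here. The members and lists were chosen with earlier results of these data known. Positions are from GENCODE release 21 of the mouse (M21) and promoter sequence from RefSeq on GRCm38.p6; 5 of 5 genes matched. Protein sequences were not used here. Alternatives were another constant, no or another filter, other scalings, other control groups, the 2 compared groups alone, the replicate number as a block, and leaving out libraries.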

Additional observations from a re-analysis of the deposited data

Results flagged for a closer look

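Changes against sham right differed between successive times, by the limma contrast of the 2 times, for 4 of the 5 genes. From 4 h to 1 day the difference was 1.21 for Fcgr1 and 1.13 for Fcgr4 on the log2 scale. In that step 0.849% of all tested genes were called higher. Of 15 alternatives, 1 ended the Fcgr1 call and 9 ended the Fcgr4 call. From 1 to 3 days the difference was 1.02 for Fcgr1, 1.24 for Fcgr4, 1.07 for Fcgr2b and 1.42 for Fcer1g. Here 5.07% of all tested genes were called higher. Of 15 alternatives, 10 ended the Fcgr2b call, 7 that of Fcer1g, 2 that of Fcgr4 and 0 that of Fcgr1. Each difference was in the direction of the later time, in 3 libraries against 3. The groups of 3 are too small for a test of single outlying libraries.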

How the results depend on the processing

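All 5 genes were called at 3 and at 10 days and none on the left side under every alternative run. At 4 h, 1 was called without contralateral left 5 and 10 days 5, when 1806 of all genes were called in place of 306. At 1 day, where 2 were called, 4 were with scaling over non-mitochondrial genes, 4 without those 2 libraries, 5 with the 2 groups alone and 1 to 2 with 1 library left out. From 4 h to 1 day, in place of 2, 1 was called with no filter, 1 with median ratio scaling, 1 with the 2 groups alone (Fcgr4 being lost in each), 4 without the 2 libraries and 1 to 2 with 1 left out. From 1 to 3 days, in place of 4, 2 were called with a constant of 0.1 (without Fcgr2b and Fcgr4), 2 with no filter, 2 with median ratio scaling (both without Fcgr2b and Fcer1g) and 2 to 4 with 1 left out, and from 3 to 10 days 0 to 2. The replicate numbers were not taken to pair the libraries, and r of deviations was above 0.1 in 9 of 23 same-number pairs (-0.23 to 0.41). Pairs of different times cannot be 1 mouse, so this count cannot decide whether left and sham right libraries share mice. Both same-number pairs of sham right and left were above 0.1 (0.219 and 0.102), and whether they share a mouse is not stated. The main limma fit treated them as independent. With the replicate number as a block, 1 gene was called at 1 day (Fcgr4 lost), 0 from 4 h to 1 day (Fcgr1 lost at adjusted p 0.0591, and Fcgr4) and 1 from 1 to 3 days (Fcgr1), and the signs of Fcer1g at 4 h (0.24), Fcgr2b on the left (-0.24) and Fcgr3 from 4 h to 1 day (-0.11) turned. Other changes of sign, all uncalled, were Fcer1g at 4 h with non-mitochondrial scaling (0.099), Fcgr4 at 4 h against the left side (-0.00072), Fcgr2b on the left with a constant of 0.1 (-0.025) or non-mitochondrial scaling (-0.049), and Fcer1g on the left with median ratio scaling (0.093) or without the 2 libraries (0.25). With 1 library left out, Fcer1g ranged from -0.14 to 0.21 at 4 h and from -0.23 to 0.25 on the left, Fcgr2b from -0.041 to 0.20 and from -0.20 to 0.14, Fcgr1 from -0.012 to 0.30 on the left and Fcgr3 from -0.0047 to 0.56 from 4 h to 1 day. The cause was not tested. With 1 FPKM added to log2 ratios, activating over Fcgr2b was 2.59 (sham right), 2.98 (left), 3.32 (4 h), 2.90 (1 day), 2.96 (3 days) and 2.56 (10 days), which puts 1 and 3 days above sham right; Fcer1g over Tyrobp was -1.25 in sham right and Fcgr1 over pan-myeloid -1.08 at 4 h. For Fcgr2b over pan-myeloid it was -1.42 in sham right and -1.43 on the left, for Fcgr3 0.96, 1.34 and 1.86 in sham right, left and 1 day, for Fcgr4 -2.08, -1.82 and -1.73 in sham right, left and 4 h, and for Fcer1g 1.41, 1.39, 1.47, 1.88 and 2.25 in sham right, left, 4 h, 1 day and 3 days. Of the 5 genes of highest r, Spearman's rank correlation kept 0, 0, 1, 1 and 0 for Fcgr1, Fcgr2b, Fcgr3, Fcgr4 and Fcer1g, and leaving out the 2 libraries kept 2, 2, 5, 2 and 2. Counts of all genes called ranged widely, from 90 to 1806 at 4 h around 306, from 62 to 418 at 1 day around 165, from 680 to 1834 at 3 days around 1032 and from 695 to 1325 at 10 days around 1000. From 4 h to 1 day they were 13 to 706 around 172, from 1 to 3 days 377 to 1290 around 732, from 3 to 10 days 3 to 422 around 283, and on the left 0 to 2760 around 4. Leaving out contralateral left 5 and 10 days 5 gave the highest counts at 4 h, 1 day and on the left. The same held from 4 h to 1 day and from 1 to 3 days. Depth limits Fcgr4 in controls, at under 5 nominal fragments in sham right.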
